A study of Mus musculus with 12 samples.

Results

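The proteins of the small ribosomal subunit were followed through the neuronal differentiation of P19 cells, in the abundance of their mRNAs, in the transcripts used and in the length of the poly(A) tails. A gene was a member when its symbol was Rps followed by a number alone, or was Rps3a1, Rps4x, Rps15a, Rps27a or Rpsa, and when reads fell on a transcript that the annotation classes as mRNA and not as a pseudogene. This gave 31 of 14042 genes with kept reads. They held 452008 of 4274320 kept reads, or 10.6%. P19 is a mouse embryonal carcinoma line of wild-type genotype, and all libraries came from this line. The groups were undifferentiated cells (D0) and cells after 2, 4 and 6 days (D2, D4 and D6) in NDiff 227 medium with 500 nM retinoic acid, with 3 libraries per day and 12 in all. D0 cells were kept in serum, so the change of medium and the retinoic acid cannot be told apart. The study's methods call the replicates biological.

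Native poly(A) RNA strands were read on nanopores without amplification, after a cDNA strand had been made on each to help the sequencing. Each read is 1 RNA molecule and gives its transcript and its tail together. A level counts alignments, 1 per line as deposited, and repeated read names were not removed. It needs no scaling by transcript length. The smallest library, D2 replicate 1, had 120326 kept reads and the largest, D0 replicate 2, had 613756. The 12 libraries came from 13 runs and each run held 1 day, so run and day cannot be told apart. Days were taken from the labels. The names of the D0 runs also carry a D2 mark, and 2 of the D6 runs name no day. The 4 detected pluripotency markers of a list of 6 summed at D0 to between 1589 and 1776 RPM, reads scaled to 1000000 kept reads in the library, and to at most 2.97 at D6, although Dppa5a and Zfp42 were at 0 at every day. The 6 neuronal markers summed to between 432 and 464 RPM at D0 and to between 2339 and 2530 at D6, and glial, endodermal and mesodermal markers never passed 71.1 RPM. In such bulk RNA, fewer cells of a type and less RNA per cell cannot be told apart.

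The small subunit binds the mRNA and reads its codons. Its head and its body with the platform close around the mRNA, and a protein is made for each position, so the subunit needs its proteins in equal numbers. The mRNAs of most ribosomal proteins start with a C and a stretch of pyrimidines, the terminal oligopyrimidine (TOP) motif, through which mTOR and LARP1 control their translation and stability. Ribosomal protein genes have also left many processed copies in the mammalian genome, made by reverse transcription of the mRNA, and most of these are not transcribed.

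The first bases of the annotated transcripts showed the pyrimidine stretch in many members. RefSeq start sites (GRCm38.p6) were found for 23 of 31 members, with 27 start sites in all. A run of at least 5 bases that were each C or T began within the first 15 bases of 14 of these sites (51.9%), against 25.1% of 32851 start sites of all genes. A run is a description of these letters and not a mapped start of the RNA. The first line below is shown for the phosphorylated protein of the group and the others for members that left the group in the results that follow. Each is 10 bases before the start and 20 after it, with the run counted from the start site on in capitals. In Rps6 and Rps27 the same stretch of C and T also reaches back before the annotated start.
Rps6 (chr4:86857348-86857377, minus strand): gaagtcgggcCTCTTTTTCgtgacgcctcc
Rps12 (chr10:23787190-23787219, minus strand): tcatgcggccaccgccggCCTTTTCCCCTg
Rps27 (chr3:90213629-90213658, minus strand): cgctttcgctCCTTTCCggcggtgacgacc

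Reads of several members were divided between the gene and a near-identical copy elsewhere in the genome. Copies were sought among transcripts with kept or pseudogene reads, at 95% identity or more over at least 200 bases and 60% of the copy. Together these copies held 68517 reads, which was 13.2% of the reads on members and copies. Of Rps2 reads, 97.8% lay on copies, nearly all of them on Rps2-ps10. For Rps27, whose zinc-finger protein sits on the subunit's body, 80.6% lay on Rps27rt and other copies. Copies held 71.5% of the reads of Rps26, 43.1% of Rps13 and 32.7% of Rps18, mainly on Rps26-ps1, Rps13-ps1 and Gm10260. For 25 members the share was at most 1.40%, which was that of Rps7. Since the reads cannot be assigned with confidence between such sequences, these members are given below alone and, where it changes a call, with their copies.

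The ends of these pairs differed. The lines below are the last 30 bases of the annotated transcripts (mm10) of 3 members and their copies, in the direction of transcription, with runs of 8 or more A in capitals. They are shown because these copies carry a run of A in the genome where the member has none, and their reads had other measured tails.
Rps13 (chr7:116331505-116331534, minus strand): caagcaataaaatcactttgagtaacttgg
Rps13-ps1 (chr8:87048197-87048226, plus strand): ataaaatcactttgagtAAAAAAAAAAAAA
Rps26 (chr10:128624537-128624566, minus strand): cctggaaaaataaaatggaagttgtacttt
Rps26-ps1 (chr8:107439131-107439160, minus strand): gttgtactttAAAAAAAAAAAAAAAAAAAA
Rps18 (chr17:33951999-33952028, minus strand): gctgttaataaatagtttatatacctatga
Gm10260 (chr13:97760072-97760101, minus strand): gtttatatacctatggAAAAAAAAAAgaaa

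The longest run of A in the last 30 bases was 13 in Rps13-ps1, 20 in Rps26-ps1, 10 in Gm10260, 27 in Rps2-ps10 and 30 in Rps27rt. It was 3 in Rps18-ps5, a second copy of Rps18. Over all 31 members it was between 1 and 6. Reads placed on the copies of Rps13, Rps18, Rps26 and Rps27 also had the shorter measured tails. In D0 cells the median tail was 105 nt on Rps13 and 81.1 nt on its copies, and in D6 cells it was 93.2 and 67.2 nt. For Rps18 it was 99.9 nt against 78.7 nt at D0. For Rps26 it was 114 nt against 98 nt, and for Rps27 122 nt against 99.4 nt. For Rps2 the medians were 97.4 nt against 92.1 nt at D0, 100.1 nt against 84.7 nt at D2, 82.8 nt against 82.4 nt at D4 and 100.5 nt against 84.4 nt at D6, with between 75 and 353 reads of the gene a day. Whether the genomic A run sets these differences was not tested.

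The division between gene and copy also followed the replicate number. In replicate 2, copies held between 58.3% and 60.5% of Rps13 reads, against 23.2% to 38.8% in the other 8 libraries. The paper multiplexed the replicates of a day by barcode and does not say which replicate carried which. For Rps18 the shares were 42.3% to 45.9% in replicate 2 and 20.1% to 26.9% elsewhere, and Rps26 and Rps27 had the same order at each day. The level of these 4 members alone was therefore lowest in replicate 2 at every day.

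**Figure D1:**
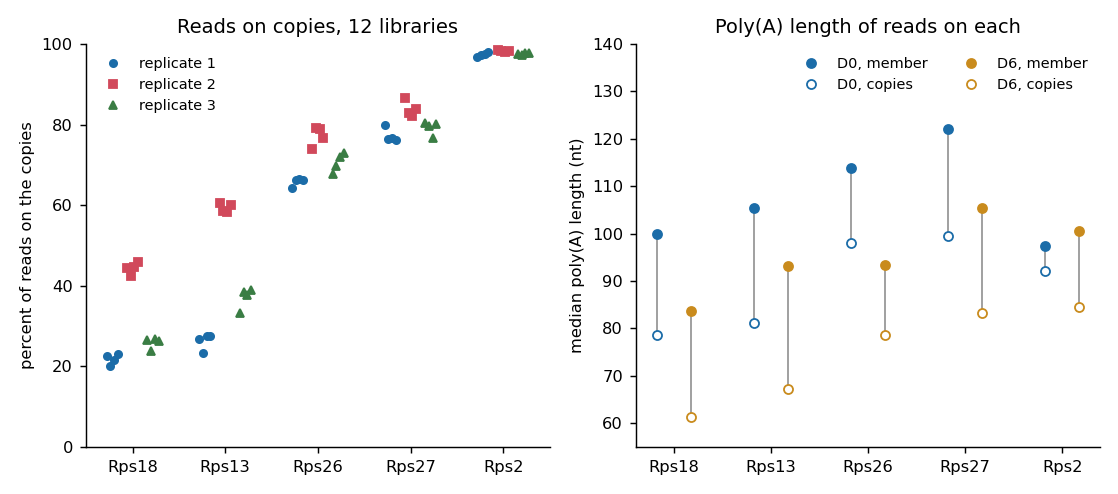
Left, the percent of reads of 5 members that lay on near-identical copies, 1 marker per library, shaped by replicate number. Right, the median poly(A) length in nt of reads on the member and on its copies at D0 and D6, over all reads of the day. Replicate 2 (squares) stands above the others for Rps13 and Rps18, and tails on copies are shorter in the pairs drawn.

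The members as a group had a lower share of the transcriptome at D6, while at D2 and D4 the share lay near that of D0. They took 10.97, 11.22 and 11.21% of kept reads in the 3 libraries of D0, and 9.69, 8.63 and 8.93% at D6. No D6 library reached the lowest D0 library. Undifferentiated cells had a mean of 11.1 ± 0.14% and D2 cells 11.2 ± 0.461%, and the mean was 11.04 ± 0.395% on D4 and 9.08 ± 0.551% on D6 (SD, n = 3 each). By a two-sided exact permutation test p was 1.0 for D2, 0.8 for D4 and 0.1 for D6, and 0.1 is the smallest value that 3 against 3 libraries can give. With the copies the share was 13 ± 0.271% at D0, 12.5 ± 0.408% at D4 (exact p = 0.2) and 10.3 ± 0.507% at D6 (exact p = 0.1). The large subunit's 47 genes took 17.4 ± 0.309% at D0, 16.8 ± 0.676% at D2, 16.6 ± 0.683% on D4 (exact p = 0.2 each) and 13.9 ± 0.853% on D6 (exact p = 0.1).

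**Figure D2:**
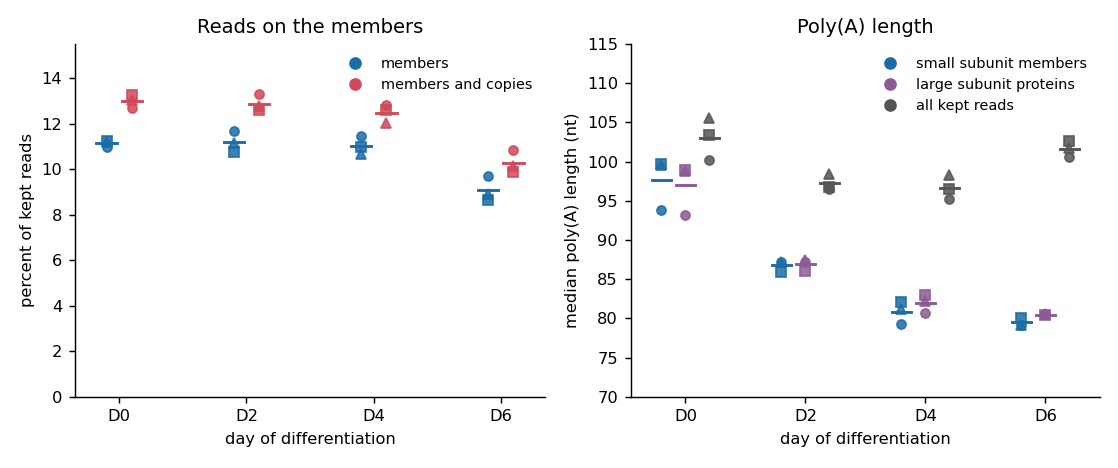
Left, the percent of kept reads on the 31 members, alone and with their copies, in each library. Right, the median poly(A) length in nt of the reads on the members, on the large subunit and of all kept reads. Markers are libraries, shaped by replicate number, and bars are means of 3. The members' share is lowest at D6, and their tails shorten from D0 on while those of all reads do not at D6.

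Gene by gene, limma-voom with Benjamini-Hochberg adjustment over 9309 genes called 28 of 31 members lower at D6 and none higher, and the members' median log2 fold change was -0.57. Of all genes tested, 18.7% were called lower at D6 and 19% higher, and the median over all genes was 0.00. At D2, 7 members were lower and none higher, where 6.16% of all genes were lower and 4.69% higher. At D4, 10 were lower and 1, Rps27, was higher, where 12.5% of all genes were lower and 12.9% higher. The members' median was -0.17 at the first and -0.11 at the second of these days, where the first was -0.10 without D0 replicate 2 and the second -0.04 without D4 replicate 3. The 3 days were each compared with the same D0 libraries. The counts at D2 and D4 rest on single libraries, as the number lower at D2 was 1 without D0 replicate 3, D2 replicate 2 or D2 replicate 3, 2 without D0 replicate 2 and 4 without D0 replicate 1, and at D4 it was 6 without D0 replicate 2 and 5 without D4 replicate 3. Under the other settings tried, the number lower ran from 1 to 14 at D2 and from 3 to 20 at D4. The higher call of Rps27 at D4 was lost without D0 replicate 2, at a mapping quality of 10 or more, and with limma-trend. Under scaling by the library total, which shifts the median of all genes to 0.13 for D2, 0.12 for D4 and 0.26 for D6, 22 members were lower at D6 and 1, Rps27, higher, while at D4 7 were higher and 6 lower. At D6 all counts of lower members were between 22 and 28 under the other settings tried, and between 23 and 30 with a library left out. Without D6 replicate 2 the calls of Rps13, Rps14, Rps15, Rps26 and Rps28 were lost. That of Rps13 was also lost without D0 replicate 1 or D0 replicate 3, and that of Rps14 without D0 replicate 2 or D6 replicate 3.

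The 3 members not called at D6 were Rps7, Rps29 and Rps27. Among the 14 proteins of the head, 13 mRNAs were lower at D6, and the list's median was -0.59 on the log2 scale. Among the 17 of the body and platform, 15 were lower, with a median of -0.48. Fau and Rack1, which belong to the subunit but not to the symbols chosen, were both lower at D6 (log2 fold change -0.32 ± 0.07 and -0.82 ± 0.06, SE). The large subunit had 44 of 47 genes lower at D6, with a median of -0.56, and 27 and 24 lower on the earlier days. Of 22 assembly factors of the small subunit, which process its rRNA and add its proteins, 14 were lower and none higher, with a median of -0.67. Fbl, the methyltransferase that modifies rRNA, fell by 1.18 ± 0.15 on the log2 scale (limma, adjusted p = 7.72e-10), Rrp9 by 1.66 ± 0.28, and Rrp12 by 2.18 ± 0.45 on only 65 reads at D0 and 10 at D6. Nob1, the nuclease that makes the last cut of the subunit's rRNA, was not called (-0.34 ± 0.24, adjusted p = 0.28).

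To show which proteins left the group, the same limma-voom fit was run with the reads on the members as the library size, so that a gene that held its share of these reads has a change of 0. At D6, 9 members were called below the group and 11 above it. On this scale 7.64% of all genes were below and 40.7% above, since the members had fallen against the other genes. The departures ran from -1.24 (Rps2) to 0.72 (Rps27) on the log2 scale, and 24 of them were smaller than 0.25 in size.

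Rps12 left the group most clearly. Its protein lies in the beak of the head. It had the most reads of any member, 26044, of which 89.0% had a mapping quality of 10 or more. Its level at D0 was 7897, 8208 and 8087 RPM in replicates 1 to 3. At D2 it was 6823, 6397 and 6502, at D4 5262, 4943 and 4809, and at D6 4354, 4037 and 3794 RPM. No 2 days overlapped. Its log2 fold change was -0.48 ± 0.06 by D2, -0.82 ± 0.05 by D4 and -1.25 ± 0.06 by D6 (SE, limma-voom, adjusted p = 8.95e-28 at D6). Its share of the members' reads went from 7.20, 7.32 and 7.21% at D0 to 4.49, 4.68 and 4.25% at D6, a departure of -0.69 ± 0.03 (adjusted p = 1.08e-22). The departure was -0.65 ± 0.03 with reads of mapping quality 10 or more, and it stayed between -0.73 and -0.65 with any library left out.

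Rps2, whose protein lines the channel where the mRNA enters, departed further, although most of its reads lay on a copy. On the gene itself there were 647 reads in all, with 140, 88 and 125 at D0 and 21, 26 and 28 at D6. With the copies it became the most abundant member, with 29576 reads. It then took 7.88, 7.66 and 7.81% of the reads on members and copies at D0. At D2 the shares were 6.06, 6.38 and 6.08%, at D4 4.03, 4.05 and 4.02%, and at D6 3.52, 3.29 and 3.48%. The days did not overlap and the replicates of a day lay close together. With the copies the log2 fold change at D6 was -1.79 ± 0.06 and the departure -1.19 ± 0.03 (limma-voom, adjusted p = 7.42e-32). On the gene alone the departure was -1.24 ± 0.26, and -0.79 ± 0.32 at a mapping quality of 10 or more. Which locus the Rps2 reads came from cannot be told apart here.

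The other members below the group departed by little. Rpsa, also known as the laminin receptor, held 5.13, 4.98 and 4.87% of the members' reads at D0 and 4.29, 4.44 and 4.12% at D6. Its departure was -0.21 ± 0.03 and its log2 fold change -0.78 ± 0.06 (limma-voom, adjusted p = 4.95e-07 and 2.13e-17), and at a mapping quality of 10 or more the departure was not called (-0.18 ± 0.10). Rps20 and Rps16, proteins of the head, departed by -0.16 ± 0.03 and -0.16 ± 0.04. Rps16 held 3.52, 3.68 and 3.52% at D0 and 3.15, 3.16 and 3.32% at D6. Rps3, which with Rps2 forms the mRNA entry site, departed by -0.16 ± 0.06. Its shares overlapped between the days, at 2.61, 2.96 and 2.64% and then 2.31, 2.67 and 2.37%. Rps19 (-0.12 ± 0.05) and Rps21 (-0.08 ± 0.03) were called below the group. They were not called when the members' total included the copies (-0.07 ± 0.04 and -0.04 ± 0.03). Copies of Rps19 held 15 reads and those of Rps21 held 0, so it was the group's total that changed. RPS19 is the gene most often mutated in Diamond-Blackfan anaemia, and its mouse gene fell with the group, by 0.67 ± 0.07 on the log2 scale. The number below the group was 5 without D6 replicate 3, where Rps3, Rps19 and Rps21 were among those that lost their calls, and Rps19 and Rps3 also lost theirs without D0 replicate 2 or D6 replicate 1. Rps21 was also not called without D0 replicate 2, D0 replicate 3 or D6 replicate 2. With limma-trend, and with the members' median change as the reference, Rps3, Rps19 and Rps21 were again among those that lost their calls.

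Rps27 stood highest. On the gene alone its level was 632, 417 and 615 RPM at D0 and 936, 567 and 728 at D6, values that overlapped. Its log2 fold change was 0.15 ± 0.14 (limma-voom, adjusted p = 0.446), with Rps27rt and other copies it was -0.02 ± 0.07, and it became a call of a rise, 0.41, without D6 replicate 2. Its share was clearer. With copies it took 2.47, 2.33 and 2.40% of the reads on members and copies at D0. The shares were 2.87, 2.56 and 2.80% at D2, 3.40, 3.04 and 3.30% at D4, and 3.63, 3.52 and 3.62% at D6. All 9 later libraries lay above the 3 of D0. The departure at D6 was 0.59 ± 0.04 with copies (adjusted p = 4.39e-17), 0.72 ± 0.14 alone and 0.84 ± 0.21 at a mapping quality of 10 or more.

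Rps29, the smallest member with a zinc site, had no copy with reads, and 99.2% of its 18540 reads had a mapping quality of 10 or more. It held 3.54, 3.50 and 3.85% of the members' reads at D0, 3.89, 3.70 and 3.88% at D2, 4.50, 4.04 and 4.58% at D4 and 4.90, 4.61 and 5.17% at D6. The D6 shares all lay above those of D0. Its departure was 0.42 ± 0.04 (limma-voom, adjusted p = 2.85e-11). Against all genes its change was -0.14 ± 0.07 and was not called (adjusted p = 0.0914), and it was called lower, -0.21, without D6 replicate 1.

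Other members above the group included Rps14 (0.29 ± 0.04), Rps28 (0.26 ± 0.03), Rps15 (0.24 ± 0.03), Rps24 (0.15 ± 0.04), and Rps15a, Rps25 and Rps9 (each 0.10 ± 0.04). Rps28 lies by the channel where the mRNA leaves, and Rps15 reaches toward the decoding site. Rps28 held 3.92, 4.15 and 4.12% of the members' reads at D0 and 5.22, 4.63 and 5.02% at D6. Rps15 held 3.25, 3.40 and 3.49% at D0 and 4.12, 3.93 and 4.05% at D6. In both the days did not overlap. Rps14, a platform protein, held 2.78, 2.93 and 2.74% and then 3.48, 3.53 and 3.39%. Only 0.371% of Rps14 reads had a mapping quality of 10 or more, and on those its departure was -0.03 ± 0.48. That of Rps24 also reversed, to -0.01 ± 0.04, on the 88.9% of its reads with such a quality. Without D6 replicate 2, Rps9, Rps24 and Rps25 lost their calls. Rps9 also lost its call without any 1 of the D0 replicates or without D6 replicate 3, Rps15a without D0 replicate 3 or D6 replicate 3, and Rps25 without D0 replicate 1. With limma-trend Rps9, Rps15a, Rps24 and Rps25 lost theirs, and with the members' median change as the reference Rps9, Rps15a and Rps25 did. All these members still fell against all genes.

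Rps7, a body protein, could not be placed. It had 4357 reads, of which 6.13% had a mapping quality of 10 or more. Its level was 1124, 603 and 1173 RPM at D0 and 1374, 553 and 1084 at D6, so replicate 2 was lowest at both days, as in the members split with copies, although its known copies held only 62 reads. Its departure was 0.30 ± 0.23, and -0.45 ± 0.40 at a mapping quality of 10 or more. With copies added, Rps13 and Rps26 were called above the group, at 0.18 ± 0.04 and 0.22 ± 0.04, where the genes alone gave 0.11 ± 0.17 and 0.01 ± 0.13. Rps18 (0.00 ± 0.09, and 0.06 ± 0.03 with copies) and Rps6 (-0.01 ± 0.04) were not called away from the group. Rps6, which S6 kinase phosphorylates downstream of mTOR, fell by 0.57 ± 0.06 on the log2 scale. Nor was Rps27a, made as a fusion to ubiquitin, called (-0.05 ± 0.03), with a log2 fold change of -0.62 ± 0.05.

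**Figure D3:**
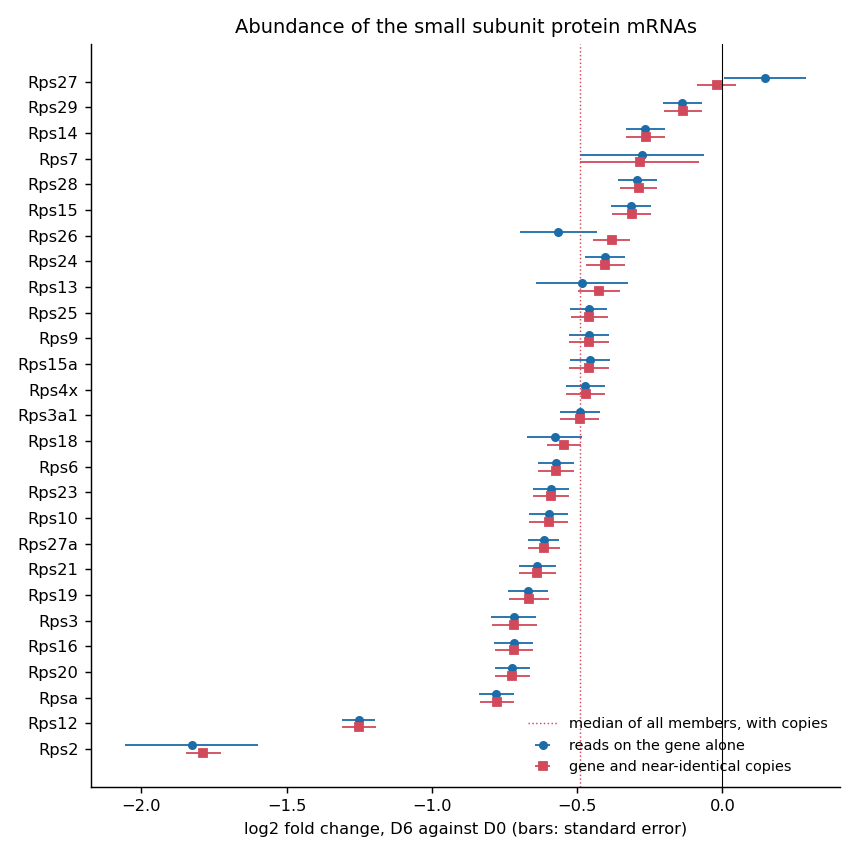
The log2 fold change at D6 against D0 of the members reported singly (limma-voom, bars are SE), on the gene alone and with near-identical copies added, with a dotted line at the median of all members. Rps2 and Rps12 lie far below the others, and Rps27 and Rps29 lie near 0.

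With reads of mapping quality 10 or more alone, 12 members were lower at D2, 20 at D4 and 25 at D6, and none was higher. The share of all genes called at this quality is not given, so a general change in calls cannot be told apart from one in the members. Of the 28 called at D6 with all reads, 24 kept the call, and Rps13, Rps14, Rps18 and Rps26 lost it. In 10 members under 50% of reads had such a quality, and in 16 at least 85% did. Of the 20 departures, 14 kept their call. The 6 that lost it were Rps14, Rps15a, Rps19, Rps21, Rps24 and Rpsa. With copies added, 28 members were lower at D6, 6 lay below the group and 15 above it. The group's total then holds the reads on copies of Rps2, which fell, so members with few copy reads also moved up. The members' median departure was 0.11, against 0.01 without copies, and Rps4x, with 2 reads on copies, became called (0.13 ± 0.03). The share of all genes called is not given for this setting. As transcript length, that of the annotated transcript with the most reads was taken, which was 5179 bases in Rps15a. It is not the length of the RNA read. This annotated length and the log2 fold change with copies had a Spearman rho of -0.519 and a Pearson r of -0.152 across the 31 members. This is a description across genes that share libraries and depth, and genes are not replicates.

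The poly(A) tails of most members shortened early. The median tail of all their reads was 93.9, 99.7 and 99.6 nt in the libraries of D0. At D2 it was 87.1, 86.0 and 87.2 nt, at D4 79.2, 82.0 and 81.2 nt, and at D6 79.2, 80.1 and 79.2 nt. Every later library lay below every D0 library, and by D6 it fell by 18.2 nt (exact p = 0.1 at each day, the smallest possible). All kept reads together had a median of 103 ± 2.67 nt in D0 cells. It was lower in D2 cells, 97.2 ± 1.05 nt, and in D4 cells, 96.7 ± 1.52 nt (exact p = 0.1 each), and was 102 ± 1.03 nt in D6 cells (SD, n = 3, exact p = 0.5). The large subunit's reads went from 96.98 ± 3.25 to 80.5 ± 0.102 nt. Within the 13 runs, the members' median lay between 96.9 and 98.4 nt in the 3 runs of D0, between 86.6 and 87.0 nt in those of D2, between 79.8 and 81.5 nt in those of D4 and between 78.6 and 80.7 nt in the 4 of D6.

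Gene by gene, limma on the median tail per library called 26 members shorter at D2 and 29 at both D4 and D6, and none longer. Of 1747 genes tested, 5.84% were shorter at D2, 6.70% at D4 and 6.35% at D6. The members' median change was -11.1 nt at D2, -16.4 nt at D4 and -17.7 nt at D6, against -3.68, -2.19 and 1.62 nt over all genes tested. Rps24 shortened later. It was not called at D2 (-4.06 ± 2.51 nt, limma, adjusted p = 0.473) and changed by -14.9 nt at D4 and -19.2 nt at D6. Rps13 and Rps2 alone were not called at D6, and with copies added all 31 were shorter at D4 and D6. Rps27 and Rps7 alone lost their calls at D6 without D0 replicate 2, D0 replicate 3 or D6 replicate 1, and Rps7 also without D6 replicate 3. With reads of mapping quality 10 or more, 28 members had enough reads, of which 22 were shorter at D2 and 24 at D4 and at D6. Rps18, Rps26 and Rps27 then lost their calls at D6, and Rps2, Rps7 and Rps14 could not be tested. By role, 14 of 14 head proteins had shorter tails at D6, with a median change of -18.9 nt, and 15 of 17 of the body and platform, with -15.7 nt. Of the assembly factors, 6 had enough reads and none was called, with a median change of 0.718 nt, while 14 of 22 were lower in abundance. The tail of Fau fell by 21.8 ± 2.01 nt. That of Rack1 fell by 20.2 ± 2.2 nt.

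The falls were largest in Rps20, Rps4x and Rps16. Rps20 had median tails of 97.8, 104 and 103 nt at D0 and 76.2, 77.4 and 79.2 nt at D6 (-24.2 ± 1.90 nt, SE, limma, adjusted p = 2.32e-11). Rps4x, a body protein encoded on the X chromosome, went from 103, 109 and 108 nt to 82.5, 82.9 and 82.1 nt (-24.1 ± 2.17 nt). Rps16 went from 96.4, 99.2 and 99.9 nt to 77.2, 75.8 and 74.1 nt (-22.8 ± 2.26 nt). In all 3 the days stood well apart. Rpsa changed least among members with many reads, from 91.2, 93.5 and 93.4 nt to 83.8, 81.6 and 81.3 nt (-10.5 ± 1.75 nt, adjusted p = 2.88e-05), and Rps13 alone changed by -13.3 ± 4.34 nt (adjusted p = 0.0527) and with copies by -15.4 ± 2.35 nt (adjusted p = 4.73e-06). For Rps2 the gene alone gave -5.91 ± 9.0 nt on its few reads. With the copies Rps2 went from 90.2, 92.4 and 93.6 nt to 82.9, 85.2 and 85.8 nt (-7.48 ± 1.64 nt). So the members that fell most in abundance, Rps2 and Rps12, were not those whose tails fell most: Rps12 changed by -20.3 ± 1.73 nt. Across the 31 members the change in abundance and the change in tail had a Pearson r of -0.302 and a Spearman rho of 0.031, a description over genes that share their libraries.

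A scale of tail length minus the members' median in the same library, chosen after the data were seen, gave the departures in tail. At D6 limma called 7 members below the group, Rps20 (-7.20 ± 1.40 nt), Rps4x (-7.16 ± 1.79 nt), Rps16 (-5.79 ± 1.90 nt), Rps21 (-5.45 ± 1.64 nt), Rps29 (-4.13 ± 1.62 nt), Rps23 (-4.06 ± 1.54 nt) and Rps12 (-3.28 ± 1.29 nt). Rpsa alone was above it (6.54 ± 1.45 nt), and with copies Rps2 was as well (8.94 ± 1.24 nt), while Rps19 and Rps26 joined those below. At a mapping quality of 10 or more Rps27a was also above (5.62 ± 1.85 nt), and Rps12 was no longer called below (-2.94 ± 1.27 nt). Of all genes, 1.03% lay below on this scale and 45.6% above.

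**Figure D4:**
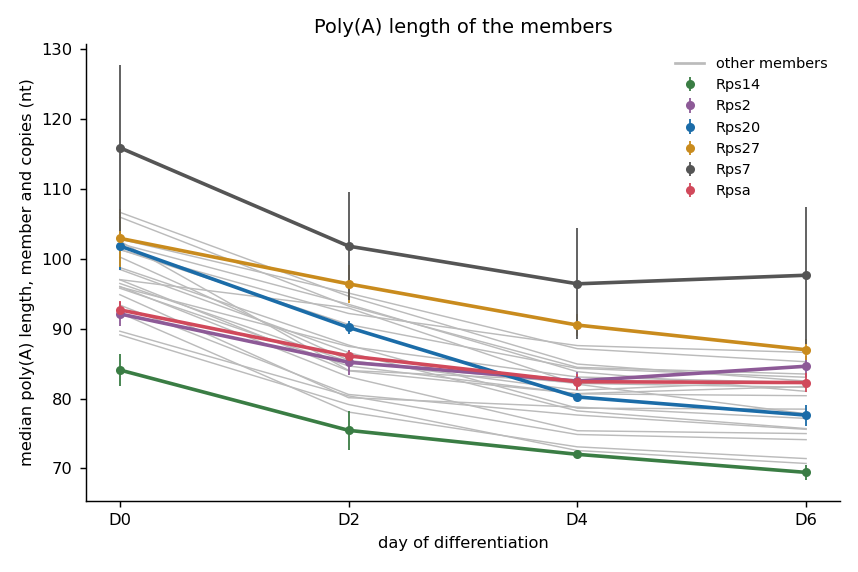
Median poly(A) length in nt of the members reported singly, with their copies, at D0, D2, D4 and D6, as the mean of 3 libraries, with SD bars on the named members. Lines fall from D0 to D4 and change less after it. Rpsa and Rps2 fall least, Rps20 falls furthest, Rps7 lies highest and Rps14 among the lowest.

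Members kept different lengths at each day. At D0 the means over 3 libraries ran from 84.1 nt in Rps14 to 121 nt in Rps27, with a median of 98.5 nt, and at D6 the longest was Rps27 with 105 nt and the median was 81.5 nt. Rps14 had 81.4, 85.2 and 85.6 nt at D0 and 68.6, 70.7 and 69.2 nt at D6. Rps27 alone had 113, 128 and 123 nt at D0 and 99, 111 and 105 nt at D6, and its copies were shorter, as given above. With copies Rps7 was longest at D6, with 89.5, 109 and 94.9 nt.

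The shortening was a shift into the class of 30 to 90 nt, and to a lesser degree into tails under 30 nt. These are the study's classes, which correspond to few bound poly(A)-binding proteins and to none. The share of all members' reads with 30 to 90 nt was 44.7, 40.6 and 40.9% at D0 and 54.3, 53.8 and 55.3% at D6. By limma 28 members had a higher share at D6, with a median change of 11.8 points, where 5.72% of genes tested were higher and the median over all genes was -0.977. It rose most in Rps20 (19.1 ± 1.5 points), Rps21 (18.1 ± 1.68 points) and Rps4x (18.1 ± 1.71 points). The share under 30 nt was 2.04, 1.77 and 1.52% at D0 and 4.38, 4.35 and 3.62% at D6. For this class 15 members were higher at D6, with a median change of 2.25 points, where 2.75% of genes tested were higher and the median over all genes was 0.73. The count was 8 without D0 replicate 2 or D0 replicate 3, and with a limit of 25 nt it was 7, with a median change of 1.17 points. Rps28 was among those that rose, from 2.33, 1.85 and 2.13% to 7.87, 5.49 and 6.57% (4.54 ± 0.53 points), and Rps16 rose by 3.87 ± 0.47 points. Rps4x, whose median tail fell as far as that of Rps16, gained 1.39 ± 0.29 points under 30 nt.

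Transcript use changed little. All 142 member transcripts with reads had the same coordinates in the reference annotation. Of 22 members with more than 1 transcript to test, 3 had a called change in a transcript's share at D6 (limma, adjusted over 1662 transcripts), Rps24, Rps19 and Rps26, and none reached 10 points. Of all transcripts tested, 2.83% were called, which is a share of transcripts and not of genes, so it cannot be set directly against the number of members. Rps19 and Rps26 were no longer called with reads of mapping quality 10 or more, where 10 members could be tested. In Rps19, ENSMUST00000108429.7 went from 8.37, 6.00 and 7.43% of the gene's reads at D0 to 3.32, 4.49 and 3.01% at D6 (-3.66 ± 0.803 points, adjusted p = 0.0443). In Rps26, ENSMUST00000219591.1 went from 9.82, 9.49 and 8.91% to 3.69, 6.72 and 5.0% (-4.27 ± 0.837 points, adjusted p = 0.0256). The number of members called was 1 without D0 replicate 1, D0 replicate 3, D6 replicate 1 or D6 replicate 3.

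In Rps24, a body protein that is also a Diamond-Blackfan gene, the transcripts differ in short exons at the end of the coding sequence, so they encode different last residues. The gene lies on chromosome 14, plus strand. The main transcript, ENSMUST00000169826.2, has a 20-base exon (chr14:24495430-24495449, mm10) between exon 4 (chr14:24493383-24493493) and the last exon (chr14:24495775-24495845). ENSMUST00000223999.1 has an 18-base exon before it (chr14:24494052-24494069), and ENSMUST00000225023.1 has neither short exon. After exon 4 the annotation gives 0 further coding bases to the main transcript, 3 to the one with the added exon and 9 to the one with neither. The 3 junctions after exon 4 are shown because the reads are divided by them, with the short exon that follows exon 4 in capitals.
ENSMUST00000169826.2: aaaagTGAGTGGAGATTGGATACAGccaaa
ENSMUST00000223999.1: aaaaagAAATGAAATACCTAGCAGtgagtg
ENSMUST00000225023.1: ggtgctggcaaaaagccaaaggagtagatc

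The transcript with neither short exon was lost during differentiation. Its share of Rps24 reads was 6.89, 5.75 and 6.24% at D0. It was 1.68, 1.57 and 2.41% at D2, 0.227, 0.999 and 0.416% at D4, and 0.334, 0.366 and 0.394% at D6. It had already fallen by D2, and no later library came near those of D0. The change at D6 was -5.93 ± 0.437 points (SE, limma, adjusted p = 2.8e-05), and -5.17 ± 0.346 points at a mapping quality of 10 or more (adjusted p = 3.29e-06). The main transcript went from 90.9, 92.4 and 91.4% to 96.7, 96.5 and 96.9% (5.13 ± 0.558 points). The transcript with the 18-base exon held 0.87, 0.531 and 0.994% at D0 and 2.00, 1.90 and 1.67% at D6. Its change of 1.06 ± 0.383 points was not called with all reads (adjusted p = 0.2) and was called at a mapping quality of 10 or more (1.52 ± 0.319 points, adjusted p = 0.0141).

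These shares rest on 416 reads of the transcript with neither exon, 172 of that with the 18-base exon and 13884 of the main one. The transcript with neither exon is annotated to run on for 1613 bases, but its reads ended at base 511 in the median, near base 499, which is where the main transcript's end falls on it. A nanopore read can miss short exons through base-calling errors, and the mapping quality was 10 or more in 80.3% of its reads and in 89.5% of the main transcript's. The part of such misplacement in the shares was not tested.

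**Figure D5:**
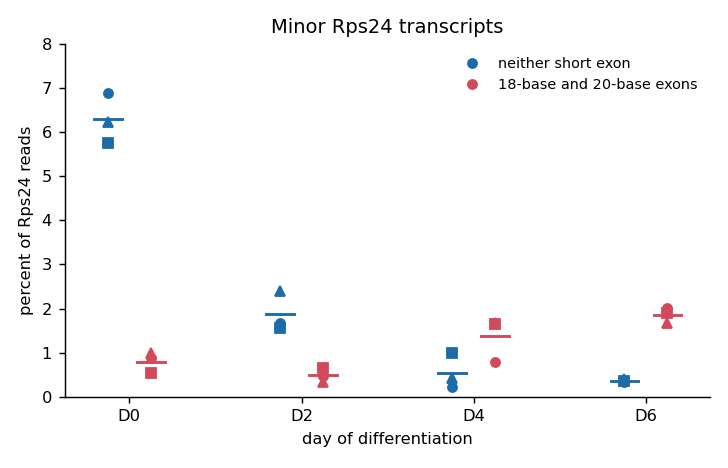
Percent of Rps24 reads on the transcript with neither short exon and on the one with both the 18-base and 20-base exons, by day. Markers are libraries, shaped by replicate number, and bars are means of 3. The first falls from 6.30% at D0 to 0.365% at D6, and the second is 0.798% at D0 and 1.86% at D6.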

How the data were processed

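Direct RNA reads of 12 P19 libraries were analysed. Base calling by the authors used Guppy, alignment to mm10 transcripts (GENCODE vM17) used Minimap2 2.20, tail lengths came from Nanopolish and barcodes from Deeplexicon, per the study's methods and processing notes. The deposited table has 1 line per alignment with a tail length in nucleotides and positions in bases, none of them normalized. Its mapping quality is a score from the authors' aligner, and the barcode confidence is a fraction given by the authors' demultiplexing. A second deposited table holds the authors' own fold changes and adjusted p-values from DESeq2 and was not used.

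Of 6306434 lines, 69 were malformed and 289260 had no barcode. Lines tagged PASS on nuclear transcripts other than pseudogenes, repeats and spike-ins were kept. Reads were tallied per gene, transcript and library. Tests were made with limma 3.58.1 in R 4.3.3 on all 12 libraries: limma-voom with trimmed-mean scaling for genes with at least 30 reads, and limma with a trend on reads for medians and percentages (at least 10 reads in every library, 20 for transcripts). Calls were made at an adjusted p under 0.05 (Benjamini-Hochberg). Single values per library went into exact permutation tests, two-sided. Copies were found with BLAST+ 2.17.0. The steps were tested on simulated data. Start sequences came from RefSeq (GRCm38.p6), and other sequences from the mm10 reference (GENCODE vM21).

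Members named with values were, by rule, the 5 with the highest and 5 with the lowest change at D6, all departures from the group, the 3 largest and 3 smallest falls in tail, transcript changes of 10 points, the 3 with the lowest mapping quality, and Rps2, Rps6, Rps19, Rps24, Rps27a and Rpsa. Rps26 and the copies were named after their values were seen. The single values of some members are not reported here, while counts, medians and group shares cover all 31. The members, lists and tests were chosen with earlier results of these data known. If replicates of a day were not separate cultures, p-values measure only technical spread.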

Additional observations from a re-analysis of the deposited data

Results flagged for a closer look

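Reads on near-identical copies of the members numbered 68517. They lie outside the members' own values and were marked because the comparisons of the members alone do not use them. The values given with copies do use these reads. No library serves as a control without them, and they were present in all 12. The measured facts beside them are the larger share on copies in replicate 2 for Rps13, Rps18, Rps26 and Rps27, and the shorter tails on copies that end in a run of A.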

How the results depend on the processing

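Depth limits the D2 values most, with 120326 to 241064 reads per library, and low mapping quality limits Rps14, Rps7 and Rps18. With mapping quality of 10 or more, 12 members were lower at D2, 20 lower and 0 higher at D4 (median log2 change -0.28), the share of kept reads changed by -0.218 points at D2, and 1 member kept a transcript call. With a barcode confidence of 0.9 or more 2 were lower at D2, with the median of ratios 4, and with no filter on low counts 12. Counts under these alternatives stand without the share of all genes called. With the library total, 1 was lower and 1 higher at D2 (median 0.0012), 6 lower and 7 higher at D4 (median 0.007), and 1 higher at D6 (median -0.31). With limma-trend 1 was lower at D2 and 3 at D4, 0 were higher at D4, and 5 lay below and 7 above the group, and with the members' median change as reference 5 lay below. Deviations from the day's mean over 1062 genes had same-number correlations of -0.14, 0.11 and 0.09 between D0 and D6, -0.10, 0.05 and -0.0046 between D0 and D2, and -0.04, 0.31 and 0.04 between D0 and D4, so the numbers were not taken to pair any day with D0, although all were positive between D4 and D6 (0.24, 0.19 and 0.14) and between D2 and D4 (0.18, 0.16 and 0.07). With the replicate block 14 were lower at D2, against 7 without it, and 1 member had a transcript call, against 3, and Rps13 gained the call of a shorter tail at D6. With the replicate block and copies added, 14 were lower at D2 and 17 lay above the group. With copies the share at D2 changed by -0.117 points. With a limit of 25 nt, 7 members gained short tails, by 1.17 points. Mean lengths changed by -8.64, -12.8 and -14.1 nt. Not all signs held for single members. The departure of Rps14 became -0.0261, that of Rps24 -0.0128 and that of Rps7 -0.45 with mapping quality of 10 or more. That of Rps6 became 0.0096 there, 0.0292 with copies and 0.0328 with copies and block. That of Rps18 became -0.0109 with limma-trend, -0.0066 with the block and -0.0131 with the median reference, and that of Rps27a 0.0006 with copies and block. The log2 fold change of Rps27 became -0.0195 with copies and -0.0117 with copies and block, and that of Rps29 0.11 with the library total. The cause was not tested. With 1 library left out in turn, lower members numbered 1 to 5 at D2, 5 to 10 at D4 and 23 to 30 at D6, higher ones 0 to 1 at D4 and at D6, those below the group 5 to 9, members with more tails under 30 nt 8 to 14, and transcript calls 1 to 4. The members' median log2 change was -0.19 to -0.10 at D2 and -0.15 to -0.04 at D4, the median tail change -12.8 to -9.47 nt at D2 and -20.2 to -16.4 nt at D6, and the 30 to 90 nt change 10.6 to 13.8 points. The share changed by -0.184 to 0.276 points at D2 and -0.305 to 0.0888 at D4. Departures ranged from -0.16 to 0.15 in Rps18, -0.0665 to 0.0192 in Rps6 and -0.07 to 0.71 in Rps7, log2 fold changes from -0.0401 to 0.41 in Rps27, -0.21 to 0.0187 in Rps29 and -0.57 to 0.22 in Rps7, and the tail change of Rps2 from -10.8 to 3.78 nt. Of 347 summary values under alternatives, 286 kept their direction and size.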
